A study of Mus musculus with 15 samples.

Results

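The genes that carry the first steps of T cell receptor (TCR) signalling were examined in mouse CD8+ T cells that were naive, had met antigen, or had met antigen together with costimulation. They are 9 genes chosen by name and role, by a rule that uses no measured value, though earlier results of these data were known when they were chosen. The kinases are Lck, Fyn and Zap70, the adaptors are Lat, Lcp2 (the protein SLP-76) and Fyb (the protein ADAP), the effector enzyme is Plcg1, and the guanine nucleotide exchange factors are Vav1 and Sos2. They are 9 of the 55536 genes of the count table that matched the annotation, and all 9 were among the 17366 genes with enough counts to be tested.

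The TCR has no enzyme of its own. When it binds antigen, Lck, a kinase of the Src family that is carried by the CD8 co-receptor, phosphorylates the CD3 and zeta chains, and Fyn can do the same. Zap70 docks on the phosphorylated chains and in turn phosphorylates the membrane adaptor Lat and the cytosolic adaptor Lcp2, which together hold the next enzymes in place. Plcg1 then cleaves a membrane lipid into inositol trisphosphate, which releases calcium, and diacylglycerol, which recruits Ras activators and protein kinase C. Vav1 activates Rac and drives actin remodelling, Sos2 loads Ras with GTP, and Fyb links Lcp2 to integrin adhesion.

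There were 15 libraries, 5 in each of 3 groups, all from OT-I TCR transgenic mice on the C57BL/6J strain, whose CD8+ T cells recognise an ovalbumin peptide. The methods describe the OT-I mice as deficient in Rag1 or Rag2, of both sexes and over a range of adult ages, and the wild-type C57BL/6J recipients keep their own lymphocytes. Naive cells were purified from OT-I mice without transfer. Ag cells had been moved into recipients that were given the peptide with control IgG, and Ag+Costim cells into recipients given the peptide with agonist antibodies to OX40 (CD134) and 41BB (CD137). Both were sorted from spleen and lymph nodes, by a gate on live CD8+ cells that carry the donor's CD45 allele and at high purity according to the methods, which would leave B and myeloid cells out, after 4 days according to the labels and after a slightly shorter time according to the methods. No library holds transferred cells without antigen or costimulation without antigen, so Naive differs from both other groups in antigen, transfer and host together.

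The libraries held 4865952 to 25280667 counts in matched genes. The labels call lane 2 the lane of Ag 1 to 5 and Ag+Costim 1 to 3, and lane 3 that of Ag+Costim 4 and 5 and Naive 1 to 5, so Ag and Naive share no lane and a lane term rests on Ag+Costim, the group in both. With lane as a term 0 genes were called in Ag against Naive and 943 in Ag+Costim against Naive. In the deposited FPKM table, which was not used, the columns of Ag 1 and Naive 5 hold the same value in every row, while their columns in the count tables differ. Ag 3 had 16.9% of its sequenced reads counted against 37.4% to 53.6% in the other libraries. The 6 markers of CD8 T cells summed to 4656 to 8032 CPM (matched counts scaled to the same total in every library) in Naive, 3705 to 7601 in Ag and 3797 to 4811 in Ag+Costim. The 8 B cell markers, most of whose signal was Ighm, summed to 589 to 1101, 572 to 1541 and 472 to 715 CPM, and Ms4a1 (CD20), a defining B cell gene, stood at 27.7, 72.8 and 29.1 CPM in Ag 1, Ag 3 and Ag 4 against at most 5.64 in the other 12 libraries. The 7 myeloid markers summed to 13.7 to 183 CPM in Naive, with Naive 5 highest, and 59.0 to 147 in the others. The 7 erythroid and platelet markers summed to 2.56 to 81.4 CPM in Naive and Ag+Costim and reached 682 in Ag 3, and the 3 CD4 T cell markers stayed at or below 22.4 CPM.

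Compared per transcript length, as TPM (counts per base of transcript, scaled to the same total in every library), Lck was the most abundant of the 9 genes in every library and Sos2 the least. In Naive cells Lck stood at 1281 ± 163 TPM (SD, n = 5), Lat at 570 ± 143 and Fyb at 319 ± 63.9, and the ranges of these 3 genes did not overlap. Lcp2, Vav1, Fyn and Zap70 followed at 159, 141, 133 and 127 TPM, with overlapping ranges between neighbours. Plcg1 at 41.9 TPM and Sos2 at 3.44 TPM lay apart from them and from each other. The order in Ag+Costim cells began and ended with the same genes, with Lck at 1135 TPM, Lat at 439, Plcg1 at 16.8 and Sos2 at 2.24. Fyb (207 TPM), Fyn (169) and Lcp2 (161) overlapped there as neighbours. In Ag cells Lat at 444 TPM and Fyb at 236 TPM also overlapped, since Lat was low in Ag 3. Lck exceeded at least 99.5% of the tested genes in each group by this level, and Sos2 between 28.1% and 32.3% of them. Sos2 rested on 76 to 213 counts per library, and each of the other 8 genes on at least 273.

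**Figure D1:**
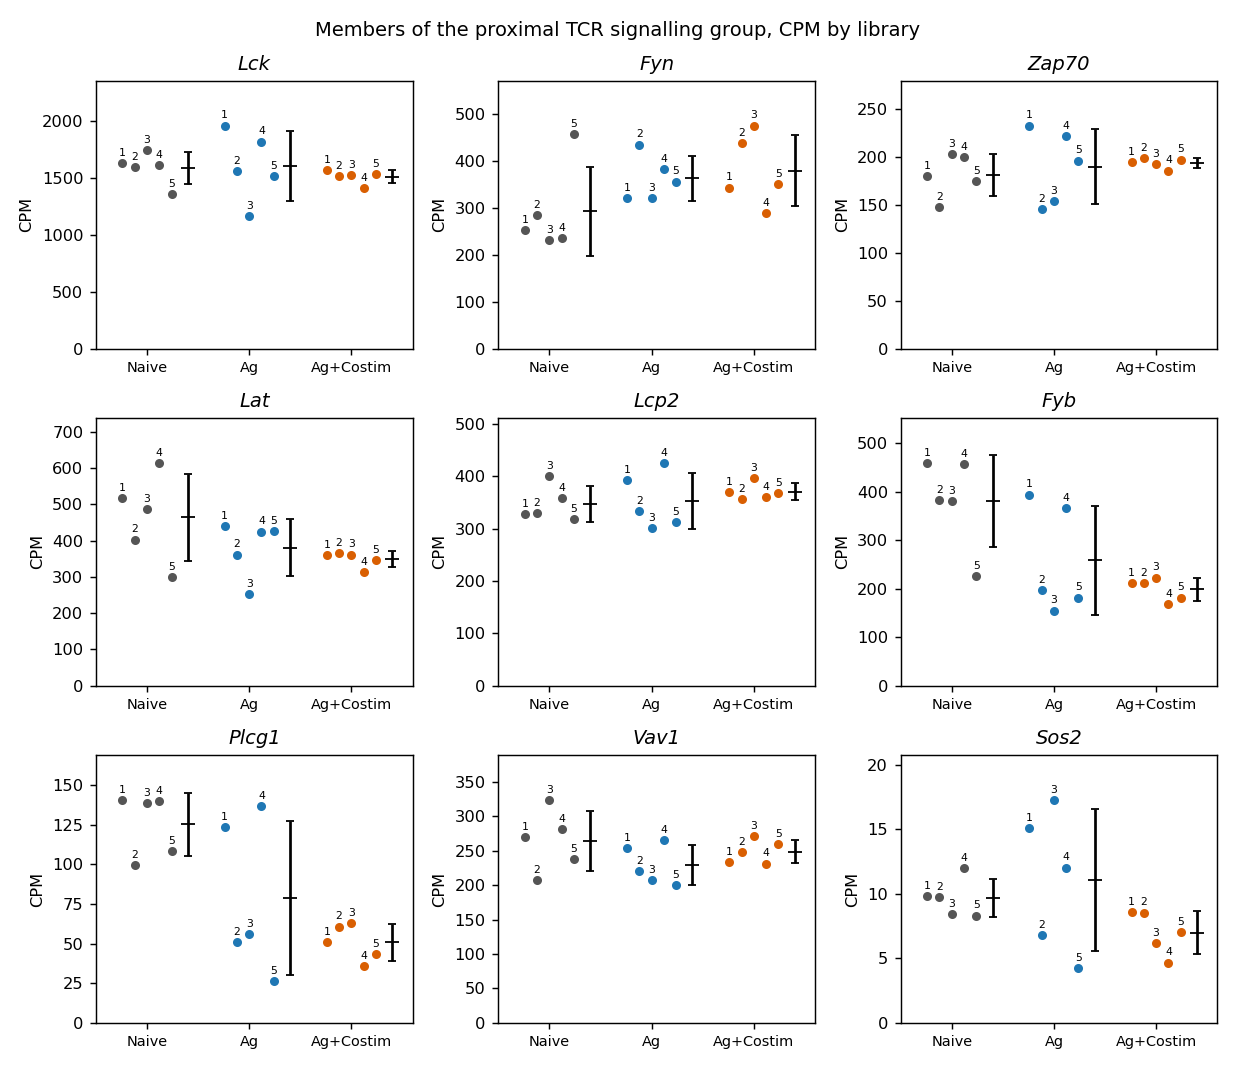
CPM (y axis, from 0) of each of the 9 genes in the 15 libraries, with points numbered by replicate and, beside each group, the mean and 1 SD. Plcg1 and Fyb sit lower in all 5 Ag+Costim libraries than in any Naive library, and for both genes Ag 1 and Ag 4 lie near Naive while Ag 2, Ag 3 and Ag 5 do not.

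The question of the first comparison is what antigen alone did. None of the 9 genes passed the test between Ag and Naive (edgeR quasi-likelihood test, Benjamini-Hochberg FDR under 0.05 over all genes tested). The background was 6.71% of all genes called, with 3.05% higher and 3.66% lower in Ag. With an unadjusted p under 0.05 there was 1 of the 9, Fyb (28.7% of all genes), and DESeq2 called 0 (16.8% of the genes it tested). The median log2 fold change of the 9 was 0.10, beside 0.08 over all genes tested. No member had groups whose CPM did not overlap, beside a background of 3.63% of genes.

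The question of the second comparison is what costimulation added to antigen. Again 0 of the 9 passed the edgeR test between Ag+Costim and Ag, at a background of 0.0346% called (0.0288% higher and 0.00576% lower), 0 had an unadjusted p under 0.05 (26.8% of all genes), and DESeq2 called 0 (14.6%). The median log2 fold change of the 9 was -0.02, beside -0.10 over all genes. Over all genes, edgeR called 5 higher and 1 lower here and DESeq2 664 higher and 1869 lower, so the choice of test sets how many genes are called in this comparison. No member had groups apart in CPM, beside 7.04% of all genes.

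The third comparison joins antigen and costimulation against Naive. Here 3 of the 9 genes passed the edgeR test: Plcg1 and Fyb fell and Lcp2 rose. The background was 44.7% of all genes called, 21.0% higher and 23.6% lower, so 3 of 9 is no larger a share than among all genes. The groups were apart in CPM for 2 of the 9, Plcg1 and Fyb, beside 45.6% of all genes. The unadjusted p was under 0.05 for 4 of the 9, and DESeq2 called these 4, the fourth being Fyn. Over all genes these shares were 55.7% and 53.1%, both above 4 of 9. The 3 comparisons share their groups, so their values for a gene are not independent.

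**Figure D2:**
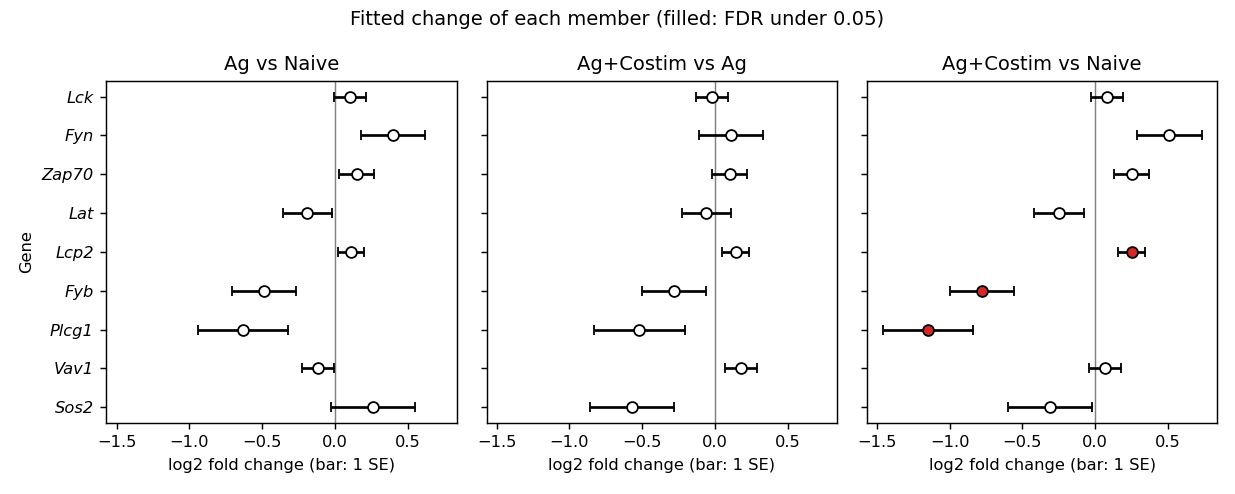
Fitted log2 fold change (x axis) of the 9 genes in the 3 comparisons from the edgeR fit to 15 libraries, with bars of 1 SE. Filled points passed an FDR of 0.05, which only Plcg1 (-1.15), Fyb (-0.78) and Lcp2 (0.25) did, all 3 in Ag+Costim against Naive.

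Plcg1 (chr2:160731300-160775760, plus strand, GRCm38) had the largest difference of the 9. Its CPM was 141, 99.5, 139, 140.0 and 108 in Naive 1 to 5, 124, 51.0, 56.1, 137 and 26.5 in Ag 1 to 5, and 50.8, 60.7, 62.9, 35.9 and 43.5 in Ag+Costim 1 to 5. Every Ag+Costim library lay below every Naive library, and the Ag libraries covered both ranges, with Ag 1 and Ag 4 among Naive and the other 3 within or under the Ag+Costim range. Plcg1 fell by 1.15 on the log2 scale from Naive to Ag+Costim (SE 0.31, 2.22-fold, edgeR FDR 0.0138). From Naive to Ag its log2 fold change was -0.63 (SE 0.31, edgeR FDR 0.188) and from Ag to Ag+Costim -0.52 (SE 0.31, edgeR FDR 0.291). In bulk RNA a lower level can mean fewer cells with the transcript or less of it per cell, which cannot be told apart.

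Fyb (chr15:6522853-6663313, plus strand) followed Plcg1 closely. Its CPM was 459.8, 382, 381, 456 and 226 in Naive, 394, 197, 155, 366 and 182 in Ag, and 212, 212, 223, 168 and 181 in Ag+Costim. Naive 5 lay just above the highest Ag+Costim library, and Ag 1 and Ag 4 again stood with Naive. Fyb fell by 0.78 from Naive to Ag+Costim (SE 0.22, 1.71-fold, edgeR FDR 0.0164), with -0.49 from Naive to Ag (SE 0.22, edgeR FDR 0.158) and -0.28 from Ag to Ag+Costim (SE 0.22, edgeR FDR 0.413). Without Naive 5, the Naive library lowest in Fyb, the value from Naive to Ag was -0.61 (edgeR FDR 0.0469), which gives no separate support. Without Ag+Costim 4 neither gene passed in Ag+Costim against Naive (edgeR FDR 0.0854 for Fyb and 0.0533 for Plcg1). With lane as a term the values were larger, -0.95 for Fyb and -1.49 for Plcg1, and did not pass (edgeR FDR 0.062 and 0.0565). Within lane 3 alone (2 Ag+Costim and 5 Naive libraries) Fyb was -0.95 (edgeR FDR 0.0337) and Plcg1 -1.49 (edgeR FDR 0.0198). All Naive libraries are in lane 3, so the lane term makes the same contrast. The lane term and the lane 3 fit are therefore not separate checks, and both rest on Ag+Costim 4 and 5. Within Ag+Costim the lanes did not overlap for Fyb, at 212 to 223 CPM in lane 2 and 168 to 181 in lane 3. The same held for Plcg1, at 50.8 to 62.9 and 35.9 to 43.5 CPM, and for Lat, at 359 to 366 and 314 to 347 CPM. With so few libraries per lane such a split can arise by chance, and its share over all genes was not counted.

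Lcp2 (chr11:34046920-34092295, plus strand), the cytosolic scaffold, was the member that rose. Its CPM was 328, 329.6, 401, 359 and 318 in Naive, 392, 333, 301, 426 and 312 in Ag, and 369.6, 357, 397, 360.5 and 368 in Ag+Costim. The Ag+Costim values lay inside the range of Naive, close together. The fitted change was 0.25 from Naive to Ag+Costim (SE 0.09, 1.19-fold, edgeR FDR 0.0432), 0.11 from Naive to Ag (edgeR FDR 0.424) and 0.14 from Ag to Ag+Costim (edgeR FDR 0.346). The call depended on scaling: with library totals in place of TMM factors the median of all genes moved from -0.08 to -0.23 and Lcp2 to 0.09 (edgeR FDR 0.484). It was also lost without any 1 of 9 libraries (Ag 1, Naive 1, 2 or 4, or any Ag+Costim library, edgeR FDR 0.0558 to 0.0999).

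Lat (chr7:126363824-126369570, minus strand), the membrane scaffold, did not pass in any comparison. Its CPM was 516, 403, 488, 615 and 299.8 in Naive, 439, 361, 253, 425 and 426 in Ag, and 359, 366, 361, 314 and 347 in Ag+Costim. Naive 5 and Ag 3 were the low libraries of their groups, and the groups overlapped. Its log2 fold change was -0.25 in Ag+Costim against Naive (SE 0.17, edgeR FDR 0.221), -0.19 in Ag against Naive (edgeR FDR 0.45) and -0.06 between the activated groups (edgeR FDR 0.825).

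Lck (chr4:129548344-129573641, minus strand) differed less between groups than among the Ag libraries. Its CPM was 1626, 1593, 1742, 1607 and 1358 in Naive, 1957, 1555, 1165, 1816 and 1511 in Ag, and 1565, 1516, 1525, 1411 and 1531 in Ag+Costim. The Ag group held both the highest and the lowest library, Ag 1 and Ag 3. The log2 fold changes were 0.10, -0.02 and 0.08 in the 3 comparisons in the order above, each with an SE of 0.11 (edgeR FDR 0.531, 0.932 and 0.526). The mean CPM of Lck was lower in Ag+Costim (1510) than in Naive (1585) while the fitted change was above 0, because the fit rescales libraries by TMM factors, and with library totals the fitted change was -0.07.

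Fyn (chr10:39368855-39565381, plus strand) had 1 library far from its group. Its CPM was 252.5, 284, 231, 236 and 458 in Naive, 321, 435, 320.4, 382 and 356 in Ag, and 343, 438, 475, 289 and 351 in Ag+Costim. Naive 5 stood with the highest activated libraries, and the other 4 Naive libraries lay below all 5 Ag and all 5 Ag+Costim libraries. The log2 fold change was 0.51 in Ag+Costim against Naive (SE 0.22, edgeR FDR 0.0645) and 0.40 in Ag against Naive (SE 0.22, edgeR FDR 0.225). Without Naive 5, Fyn was called in Ag against Naive (0.66, edgeR FDR 0.0168) and in Ag+Costim against Naive (0.78, edgeR FDR 0.0029). Naive 5 stands out by its own Fyn value, so these calls show its weight and give no separate support. With lane as a term and Naive 5 kept, the value in Ag+Costim against Naive was 0.28 (edgeR FDR 0.439). Within lane 3 alone, in effect the same contrast, it was 0.29 (edgeR FDR 0.449). Naive 5 also had the highest myeloid marker sum of the 15 libraries (183 CPM), and its part in this value was not tested. The log2 ratio of Fyn to Lck per length was -3.30 ± 0.58, -2.88 ± 0.39 and -2.77 ± 0.26 in Naive, Ag and Ag+Costim (SD, n = 5 each), with overlapping ranges.

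Zap70 (chr1:36761798-36782818, plus strand) averaged 181 ± 22.3, 190 ± 39.2 and 193 ± 5.18 CPM in Naive, Ag and Ag+Costim (SD, n = 5 each). The 5 Ag+Costim libraries, at 185 to 199 CPM, lay inside the range of Naive, which was 148 to 203. Its log2 fold change was 0.25 in Ag+Costim against Naive (SE 0.12, edgeR FDR 0.0917), and between 0.10 and 0.15 in the others.

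Vav1 (chr17:57279100-57328031, plus strand) averaged 264 ± 44.1, 229 ± 28.7 and 249 ± 17.1 CPM in Naive, Ag and Ag+Costim, and its 3 ranges overlapped. Its log2 fold changes were -0.12, 0.18 and 0.07, each with an SE of 0.11 (edgeR FDR 0.47, 0.293 and 0.621), and the last was -0.09 with library totals. Sos2 (chr12:69583762-69681852, minus strand) was low throughout, with 9.81, 9.74, 8.43, 12 and 8.30 CPM in Naive, 15.1, 6.81, 17.3, 12 and 4.22 in Ag, and 8.56, 8.54, 6.15, 4.67 and 7.01 in Ag+Costim. The Ag libraries spread most (SD 5.49 against 1.48 in Naive and 1.65 in Ag+Costim), and the Sos2 values of -0.57 between the activated groups (SE 0.29, edgeR FDR 0.23) and -0.31 in Ag+Costim against Naive (edgeR FDR 0.38) did not pass. Without Ag 5, the Ag library lowest in Sos2, the difference between the activated groups was -0.75 (edgeR FDR 0.0444), which gives no separate support. Its paralog Sos1 moved in the third comparison, where it fell by 1.10 (SE 0.20, edgeR FDR 0.00334). Sos1 stood at 11.3 to 23.7 CPM in Naive and 6.08 to 7.15 in Ag+Costim. The log2 ratio of Sos2 to Sos1 per length was 0.25 ± 0.15, 1.08 ± 0.63 and 0.87 ± 0.30 in Naive, Ag and Ag+Costim (SD, n = 5 each). Its range in Naive, 0.04 to 0.45, ended just under that in Ag+Costim, 0.48 to 1.25. How often ratios of other genes separate in this way was not counted.

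**Figure D3:**
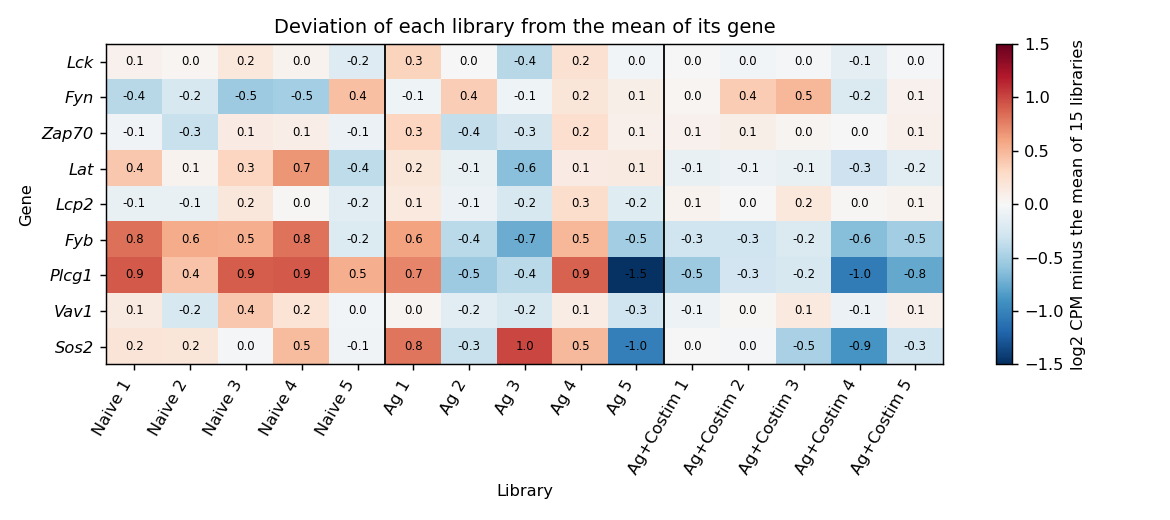
log2 CPM of each of the 9 genes (rows) in each library (columns) minus the mean of that gene over 15 libraries. Plcg1 and Fyb vary most together, high in Naive 1 to 4, Ag 1 and Ag 4 and low in the Ag+Costim libraries, while Lck, Zap70 and Lcp2 stay near 0.

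The libraries Ag 1 and Ag 4, in which Plcg1 and Fyb were near Naive, also had the higher Ms4a1 values given above, but so had Ag 3, in which Fyb was the lowest of the 15 libraries. Ag 2 and Ag 5, the libraries of low Plcg1 with Ms4a1 at 0.389 and 0.444 CPM, were made from input amounts of 1.4 and 1.8 where the others had 7.0 to 10, in a unit the labels do not give. The part of input amount or of other cells in these values was not tested. As a description over the 15 libraries, which share library depth and group, log2 CPM of Fyb and Plcg1 had a Pearson r of 0.89, Fyb and Lat 0.83, and Fyn and Lat -0.56. Of all genes tested, those most like Plcg1 were Gm1966 (r = 0.989), Gramd4 (0.987) and Gm26526 (0.986), and those most like Fyb were Bet1l (0.985), Trbj1-2 (0.983) and Rasal3 (0.983). For Lat they were Creb3 (0.954), 1110038F14Rik (0.943) and Dus3l (0.941), for Fyn Stk39 (0.920), Rac1 (0.918) and Micu2 (0.906), and for Lck Slc9a3r1, Mterf1b and Rnf113a2, each at 0.912. For Vav1 they were Rnf14 (0.921), Inpp5b (0.907) and Spata2 (0.894), for Zap70 Aldh3a2 (0.891), Atp6v0d1 (0.868) and Ogfr (0.866), for Lcp2 Cbx6 (0.890), Ly9 (0.878) and Mob3a (0.872), and for Sos2 Gm43753 (0.956), Vmn2r96 (0.953) and Zfp992 (0.940).

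The genes differ further in the transcripts they make. The annotation holds 65 transcripts of the 9 genes, of which 35 had enough counts to be tested for a change of share within their gene. The shares come from the deposited transcript counts, which were estimated from short reads (single reads of 50 bases per the labels, longer ones per the methods), so transcripts that differ in a short stretch are split on few reads. None of the 9 genes was called in any comparison (edgeR, gene FDR under 0.05 and a share change of at least 10 percentage points in a transcript with FDR under 0.05). The background was 0.640% of 7501 genes in Ag against Naive, 0.947% in Ag+Costim against Ag and 1.23% in Ag+Costim against Naive. The unadjusted p was under 0.05 for 1, 1 and 3 of the 9. By limma's test 1, 0 and 4 of the 9 had a gene FDR under 0.05. With the same limits on transcript FDR and share change, limma called 0, 0 and 1, the last being Lck. The shares of all genes were not counted for the unadjusted p or for limma.

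Lck has 2 promoters. In the textbook account the distal one serves mature T cells and the proximal one thymocytes. Lck-202 starts at the distal site and Lck-208 and Lck-201 start near the proximal site, 15269 bases downstream in the case of Lck-208. The sequences around the 2 start sites are shown because the transcripts differ mainly there, with the first transcribed bases in capitals (GRCm38, minus strand, RefSeq promoter table), at chr4:129573612-129573761 for Lck-202 and chr4:129558343-129558492 for Lck-208.
Lck-202 start: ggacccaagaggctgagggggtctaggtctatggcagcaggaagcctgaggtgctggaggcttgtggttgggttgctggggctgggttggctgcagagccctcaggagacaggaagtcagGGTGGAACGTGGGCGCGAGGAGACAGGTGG
Lck-208 start: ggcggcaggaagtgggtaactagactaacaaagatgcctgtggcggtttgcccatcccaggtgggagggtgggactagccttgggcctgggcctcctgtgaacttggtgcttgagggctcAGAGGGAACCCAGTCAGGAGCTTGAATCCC
In windows of 250 bases before and 50 bases after each start, read on both strands, CAGGAAG, a core of Ets family sites, was found 2 times for Lck-202 and 1 time for Lck-208, beside 13.3% of 32851 such windows of all genes with at least 1. GGGCGG was found 0 and 1 times (35.7% of windows), and TATAAA (13.6%) and CCAAT (37.4%) in neither.

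Lck-202 held most Lck counts in each group, 73.6 ± 17.8, 68.9 ± 15.3 and 67.5 ± 11.6% in Naive, Ag and Ag+Costim (SD, n = 5 each). Lck-208 held 1.22, 7.28, 1.82, 6.34 and 7.62% in Naive 1 to 5, 37.2, 25.1, 5.73, 30.2 and 3.10% in Ag 1 to 5, and 10.4, 17.4, 35.6, 29.4 and 10.7% in Ag+Costim 1 to 5. All 5 Ag+Costim libraries lay above all 5 Naive libraries, and Ag 3 and Ag 5 lay within Naive. How many transcripts of all genes separate in this way was not counted. The share of Lck-208 did not pass (edgeR transcript FDR 0.101 in Ag against Naive and 0.0692 in Ag+Costim against Naive, gene FDR 0.152 and 0.0977), and it was 20.3% and 20.7% in the 2 activated groups. Lck-201, whose first exon runs through the intron that Lck-208 removes, held 18.6, 9.40 and 10.9%. Lck-208 has 90 bases that Lck-202 lacks, 4.34% of its length, and 5 that Lck-201 lacks, so the split between Lck-208 and Lck-201 rests on a few bases and a splice junction.

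Fyn is made in a T cell form and a brain form that use alternative exons at the end of the SH2 domain and the start of the kinase domain. The T exon (chr10:39529919-39530074, plus strand, 156 bases) and the brain exon (chr10:39529437-39529601, plus strand, 165 bases) are shown because they are the part that sets the forms apart, with the bases that differ in the alignment in capitals. Of 153 aligned base pairs, 93 (60.8%) are identical.
Fyn T exon: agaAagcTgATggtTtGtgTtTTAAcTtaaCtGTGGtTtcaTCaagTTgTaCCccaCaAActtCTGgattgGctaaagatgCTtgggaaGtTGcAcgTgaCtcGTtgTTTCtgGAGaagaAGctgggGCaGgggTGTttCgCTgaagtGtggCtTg
Fyn brain exon: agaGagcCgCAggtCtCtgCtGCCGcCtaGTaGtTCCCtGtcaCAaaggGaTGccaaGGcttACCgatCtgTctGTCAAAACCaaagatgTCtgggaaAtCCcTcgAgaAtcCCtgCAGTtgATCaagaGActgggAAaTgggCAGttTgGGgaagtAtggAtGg
Of all Fyn counts, the T form Fyn-201 held 75.9 ± 18.1, 73.6 ± 29.2 and 69.2 ± 10.5% in Naive, Ag and Ag+Costim (SD, n = 5 each). The brain form Fyn-202 held 18.7 ± 16.4, 21.8 ± 26.0 and 27.6 ± 8.01% (SD, n = 5 each). Fyn-202 ran from 0.582 to 33.9% within Naive and from 0.327 to 58.8% within Ag, so the libraries of a group differed more than the groups did (edgeR transcript FDR of 1 in all 3 comparisons).

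**Figure D4:**
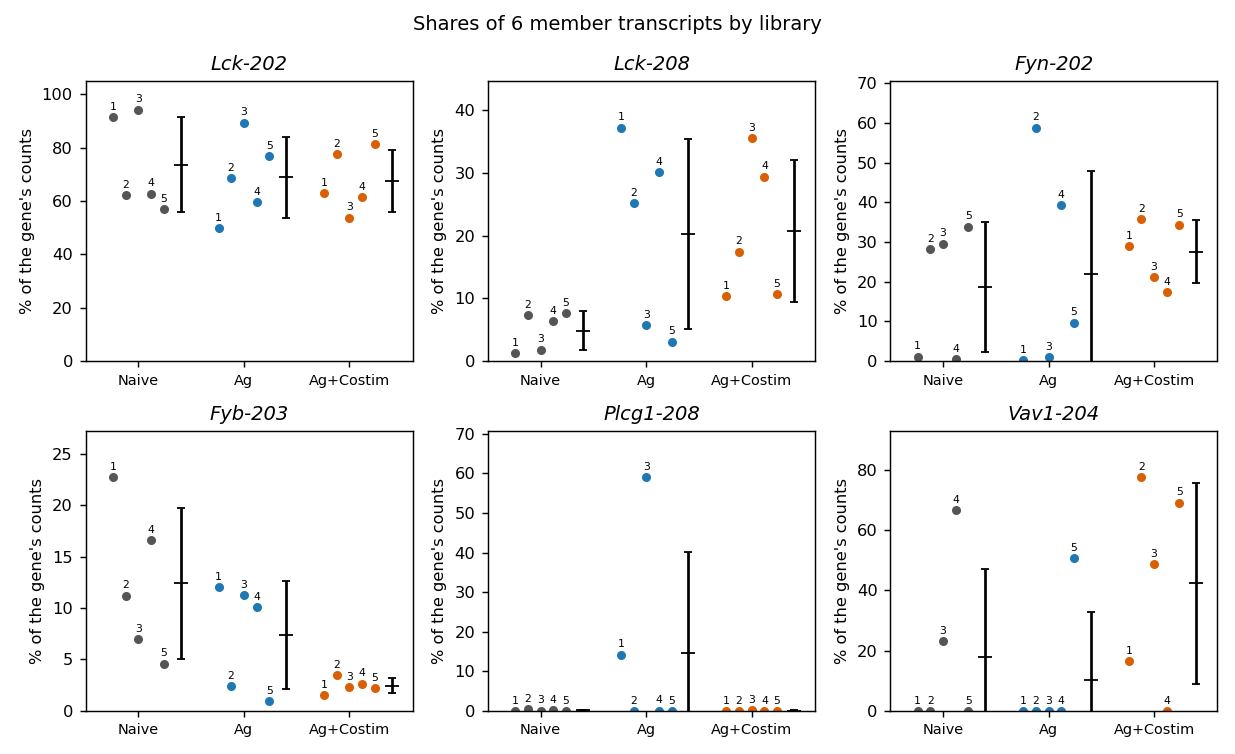
Share of the gene's counts (y axis, %) held by 6 transcripts of Lck, Fyn, Fyb, Plcg1 and Vav1 in each library, with points numbered by replicate and bars of the mean and 1 SD, cut at 0. Lck-208 is at most 7.62% in Naive and at least 10.4% in Ag+Costim, Fyb-203 is at most 3.49% in Ag+Costim, and Plcg1-208 is present mainly in Ag 3 and Ag 1. The rate of such separations over all transcripts was not counted.

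Fyb-203 is a non-coding transcript, annotated as retaining an intron, that runs 858 bases into an intron of Fyb and ends there. The exon end is shown with the first bases of the retained intron in capitals (chr15:6619721-6619780, plus strand).
Fyb-203: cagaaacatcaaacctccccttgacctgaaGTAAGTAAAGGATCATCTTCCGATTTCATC
It held 22.7, 11.2, 6.98, 16.6 and 4.60% of Fyb counts in Naive, 12, 2.44, 11.3, 10.1 and 0.948% in Ag, and 1.56, 3.49, 2.34, 2.64 and 2.20% in Ag+Costim. All Ag+Costim values lay below all Naive values, and the Ag libraries fell on either side. The rate of such separation over the transcripts of all genes was not counted. The change did not pass (edgeR transcript p 0.00146, FDR 0.103). The coding transcript Fyb-201 held 77 ± 6.18, 75.1 ± 4.20 and 78.8 ± 2.35% (SD, n = 5 each), and the short non-coding Fyb-206, at the 3′ end of the gene, 4.24, 7.80 and 10.6%.

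Lat-206 skips an exon of 30 bases (chr7:126368186-126368215, minus strand) that the main transcript Lat-201 holds. Both are printed with 15 bases of spliced transcript on each side and the exon in capitals.
Lat-201: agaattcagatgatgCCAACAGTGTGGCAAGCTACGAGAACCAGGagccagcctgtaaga
Lat-206: agaattcagatgatgagccagcctgtaaga
Lat-201 held 88.4 ± 5.01, 86.7 ± 4.40 and 89.2 ± 2.93% of Lat counts in Naive, Ag and Ag+Costim (SD, n = 5 each). Lat-206 held 0, 4.80, 4.48, 4.94 and 0% in Naive, 2.04, 15, 12.8, 6.06 and 5.58% in Ag, and 6.15, 7.20, 11.4, 3.56 and 8.16% in Ag+Costim. The groups overlapped and the share did not pass (edgeR transcript FDR 1 in Ag against Naive and 0.574 in Ag+Costim against Naive).

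Plcg1-208 is annotated for nonsense-mediated decay and adds 5 bases to the end of an exon, shown in capitals (chr2:160753540-160753569, plus strand).
Plcg1-208: ctacttggaggaccccgtgaatcatGTGAG
It held 59.0% of Plcg1 counts in Ag 3 (161 counts) and 14.2% in Ag 1 (184 counts), and at most 0.332% in the other 13 libraries. It had too few counts elsewhere to be tested in the main fit. The coding Plcg1-203 therefore held 28.2% of Plcg1 counts in Ag 3 and 95.6% on average in Naive.

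The other genes were made mostly as 1 transcript or varied within groups. Zap70-201 held 98.5, 98.9 and 99.2% of Zap70 counts in Naive, Ag and Ag+Costim. Lcp2-201 held 88.2, 93.3 and 96.5%, and the shorter Lcp2-202 11.7 ± 7.66, 6.59 ± 5.28 and 3.41 ± 3.17% (edgeR transcript FDR 0.349 in Ag+Costim against Naive). Sos2-201 held 84.0, 78.7 and 89.1%, and the intron-retaining Sos2-205 11.9, 13.5 and 5.29%. Vav1-204, which lacks 72 bases of the first exon (chr17:57279285-57279356) and so differs from Vav1-201 by little, was at 0 in 8 of the 15 libraries and at up to 77.5% in the others, with high and low libraries in every group.

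The share of a gene's counts in its protein-coding transcripts was compared by exact permutation tests, 27 in all, which cannot go below p = 0.00794 with 5 against 5. Lat was 91.6 ± 3.86% coding in Naive and 97.1 ± 0.689% in Ag+Costim (SD, n = 5 each, exact p = 0.00794, adjusted 0.107), and every Ag+Costim library lay above every Naive library. How many of all genes have coding shares apart in this way was not counted. Vav1 differed by 0.213 percentage points (exact p = 0.00794, adjusted 0.107) and Lck was at 97.0% and 99.1% (exact p = 0.0159, adjusted 0.143). No test passed after adjustment over the 27, and 6 had an unadjusted p under 0.05. Lat and Vav1, at the lowest p these tests can give, stood at 0.107 after adjustment. A pass would have needed more tests at that lowest p, so the absence of a pass says little. Fyb had the lowest coding share of the adaptors, with 82.2 ± 6.69, 84.0 ± 2.91 and 86.4 ± 2.34% in the groups Naive, Ag and Ag+Costim (SD, n = 5 each).

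The other genes of the pathway were counted in 4 lists of 93 genes, 90 of them tested: regulators of the kinases (18), paralogs of the 9 genes (12 of 15 tested), adaptors and scaffolds (29) and downstream effectors (31). In Ag against Naive 8 were higher and 16 lower (edgeR FDR under 0.05), or 24 of 90, beside 6.71% of all genes, 3.05% higher and 3.66% lower. The unadjusted p was under 0.05 for 50 of 90, beside 28.7% of all genes, and the median log2 fold change was 0.05, beside 0.08. Between the activated groups 0 of 90 passed (beside 0.0346% of all genes), 14 had an unadjusted p under 0.05 (beside 26.8%), 7 were called by DESeq2 (beside 14.6%) and the median was -0.09, beside -0.10. In Ag+Costim against Naive 16 were higher and 25 lower (median 0.01, beside -0.08 over all genes), or 41 of 90 beside the background of 44.7%, and 15 of 90 passed with lane as a term. The count in Ag against Naive ranged from 11 without Naive 1 or Naive 3 to 45 without Naive 5, and was 0 with lane as a term. Between the activated groups it was 8 without Ag 2 and 8 without Ag 5.

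Among regulators of the kinases, the Tec family kinases Txk and Tec fell in both activated groups. Txk stood at 345, 297, 357, 384 and 139 CPM in Naive, 134, 101, 94.5, 109 and 98.9 in Ag, and 109, 113, 94.1, 70.9 and 94 in Ag+Costim. Naive 5 was close to the highest Ag library and Naive did not overlap the activated groups. Txk fell by 1.40 in Ag (SE 0.21, edgeR FDR 0.00614) and by 1.5 in Ag+Costim (SE 0.21, edgeR FDR 0.00121) against Naive, and Tec by 1.03 and 1.43 (edgeR FDR 0.0136 and 0.0013). Pag1, the membrane anchor of the inhibitory kinase Csk, fell by 1.07 and 1.16 (edgeR FDR 0.0258 and 0.00642). Unc119, an activator of Lck and Fyn, rose by 1.32 and 1.12 (edgeR FDR 0.0105 and 0.00543), and the phosphatases Ptpn7 by 0.70 and 0.81 and Ptpn11 (SHP-2) by 0.77 and 0.53, all with an edgeR FDR of at most 0.0431. Csk itself was at 0.08 and -0.09 (edgeR FDR 0.714 and 0.601). Ptpn22, a phosphatase that acts on Lck, rose by 0.25 in Ag+Costim (edgeR FDR 0.0428) and was at 0.26 in Ag (edgeR FDR 0.0966), and Dusp22, also a phosphatase of Lck, rose by 0.61 in Ag+Costim (edgeR FDR 0.025). In this list of 18, 3 genes were higher and 4 lower in Ag (beside 3.05% and 3.66% of all genes), and 5 and 4 in Ag+Costim (beside 21.0% and 23.6%), against Naive.

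Among paralogs, 2 of 12 were higher in Ag (beside 3.05% of all genes) and 1 higher and 1 lower in Ag+Costim (beside 21.0% and 23.6%), against Naive. Lyn, a Src family kinase of B and myeloid cells, rose by 2.08 in Ag (SE 0.54, edgeR FDR 0.0352), with 14.5, 7.20, 41.1, 18.4 and 8.05 CPM in Ag 1 to 5 and 1.54 to 8.17 in Naive. Its 3 highest libraries, Ag 1, Ag 3 and Ag 4, were those with high Ms4a1 and Cd79a, and the part of B cell RNA in it was not tested. Lat2 was the other, with a mean under 5 CPM in both groups. Syk, the B cell counterpart of Zap70, was highest in the same 3 libraries (9.16, 23.8 and 13.5 CPM) but did not pass (log2 2.03, SE 0.98, edgeR FDR 0.184). Fgr, a Src family kinase of myeloid cells, rose by 0.78 in Ag+Costim (edgeR FDR 0.0275). The 7 myeloid markers had a median sum of 37.7 CPM in Naive and 107 in Ag+Costim, Ag+Costim 3 was the highest of its group for both, and their part in Fgr was not tested. Plcg2, the B cell counterpart of Plcg1, was at 0.98 in Ag (edgeR FDR 0.0921) and 0.81 in Ag+Costim (edgeR FDR 0.0672) against Naive, and Vav2 and Vav3 did not pass in any comparison (0.69 and -0.56 in Ag+Costim against Naive).

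Among adaptors and scaffolds, 2 were higher and 7 lower in Ag, and 7 and 7 in Ag+Costim, of 29, against Naive. Over all genes these shares were 3.05% and 3.66%, and 21.0% and 23.6%, so that 14 of 29 in Ag+Costim is near the 44.7% of all genes. Trat1 (TRIM), a transmembrane adaptor that associates with the TCR, fell by 2.79 in Ag (SE 0.57, edgeR FDR 0.0152) and fell by 3.98 in Ag+Costim (SE 0.60, edgeR FDR 0.00169), from 62.9, 65.7, 65.2, 71.3 and 13.9 CPM in Naive to 1.39 to 4.5 in Ag+Costim. Grap2 (GADS), which bridges Lat and Lcp2, fell by 1.02 (edgeR FDR 0.0462) and 1.22 (edgeR FDR 0.00829). Cd2ap, a cytoskeletal adaptor, fell by 1.07 and 1.84, and Gab3, a docking adaptor, by 1.46 and 1.78, in Ag and Ag+Costim (edgeR FDR at most 0.0273). Nck2, which links Lcp2 to actin regulators, fell by 0.77 in Ag (edgeR FDR 0.00749) and was at -0.61 in Ag+Costim (edgeR FDR 0.00466). Evl, an actin regulator that binds Fyb, fell by 1.28 in Ag+Costim (edgeR FDR 0.00928). Dok2, an inhibitory adaptor, rose by 0.82 and 0.99 (edgeR FDR 0.00614 and 0.001). Sh2d2a (TSAd), which binds Lck, rose by 0.62 in Ag (edgeR FDR 0.0259) and by 0.69 in Ag+Costim (edgeR FDR 0.00611). Lime1, a transmembrane adaptor, rose by 1.34, Sh2d1a (SAP), which recruits Fyn, by 0.99, Sh3bp2 by 0.79 and Vasp by 0.70 in Ag+Costim (edgeR FDR 0.0139, 0.049, 0.012 and 0.00578). Themis fell by 0.44 in Ag (edgeR FDR 0.0406) and was at -0.24 in Ag+Costim (edgeR FDR 0.108).

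Among downstream effectors, 1 was higher and 5 lower in Ag, and 3 and 13 in Ag+Costim, of 31, against Naive, beside 3.05% and 3.66%, and 21.0% and 23.6%, of all genes. Their medians were -0.12 and -0.22, beside 0.08 and -0.08 over all genes. Rasgrp1, the diacylglycerol-dependent Ras activator, fell by 1.55 in Ag (SE 0.25, edgeR FDR 0.00749) and fell by 1.86 in Ag+Costim (SE 0.25, edgeR FDR 0.00115). Itpr1, Itpr2 and Itpr3, the inositol trisphosphate receptors that release calcium, were at -1.16, -1.19 and -0.83 in Ag, where only Itpr1 passed (edgeR FDR 0.0148), and fell by 1.00, 2.75 and 1.24 in Ag+Costim (edgeR FDR 0.00806, 0.00532 and 0.00875). Itpkb, which phosphorylates inositol trisphosphate, fell by 1.84 and Rhoh by 1.38 in Ag+Costim (edgeR FDR 0.00824 and 0.00637). Malt1, a protease on the route to NF-kB, fell by 1.04, and the phosphoinositide 3-kinase subunits Pik3cd and Pik3r1 by 0.96 and 0.90 in Ag (edgeR FDR at most 0.0206). In Ag+Costim these genes were at -0.97, -0.94 and -1.01 (edgeR FDR 0.00278, 0.00606 and 0.00466). Rac2 rose by 0.52 in Ag (edgeR FDR 0.0234), and Cdc42 by 0.64 and Mapk3 by 0.44 in Ag+Costim (edgeR FDR at most 0.0374).

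**Figure D5:**
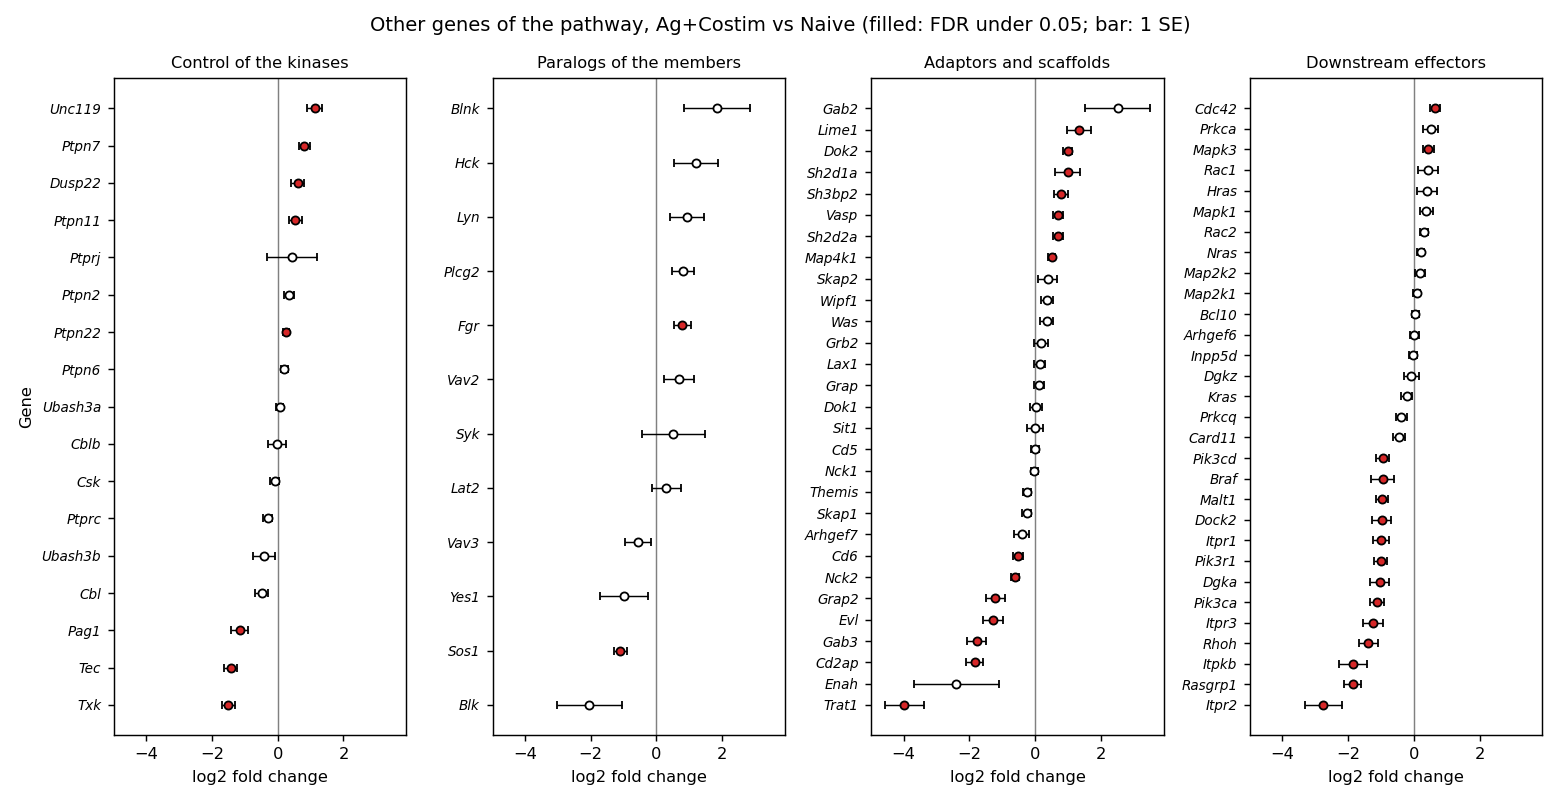
Fitted log2 fold change (x axis, bars of 1 SE) of 88 pathway genes in Ag+Costim against Naive, in 4 lists and sorted by value. Filled points passed an FDR of 0.05, which 15 higher and 24 lower genes did, with Trat1 (-3.98) and Itpr2 (-2.75) the lowest of those that passed.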

How the data were processed

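RNA was measured by bulk RNA-seq (SMART-Seq v4 with Nextera XT, single reads of 50 bases per the labels, longer reads per the methods) in 15 libraries, 5 per group. According to the submitters' processing notes the authors aligned reads to mm10 with HISAT2 2.1.0, handled alignments with SAMtools 1.9 and quantified with StringTie 2.1.0. The deposited gene and transcript tables hold estimated counts as whole numbers, not normalized. The kit does not mark strand, so reads of a gene and of an overlapping antisense gene cannot be told apart. The FPKM table, in which the columns of Ag 1 and Naive 5 are identical, and the sample sheet were not used, nor any column of fold changes or p-values.

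Of 81881 gene entries, 55536 matched GENCODE M21 (GRCm38). Entries named only by a number (26248, 0.0818% of counts) were left out of totals and tests, and 97 others held 0 counts. CPM is the count over the total of matched counts. TPM was built from transcript counts and annotated lengths. Replicates are described by the study as biological, and no pair of libraries in a group agreed within sampling noise (lowest chi-square per degree of freedom 5.62 over genes with at least 50 counts).

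Gene tests used edgeR 4.0.16 under R 4.3.3 (filterByExpr by group, TMM, robust quasi-likelihood F test, two-sided) on all 15 libraries, 1 coefficient per group, with Benjamini-Hochberg adjustment over 17366 genes at an FDR of 0.05. The common biological coefficient of variation was 0.431. Transcript shares were tested with edgeR's diffSpliceDGE over 7501 genes. limma 3.58.1 and DESeq2 1.42.0 served as alternatives. Protein-coding shares were compared with two-sided exact permutation tests. The scripts were tested on simulated data. Promoter sequences came from RefSeq (GRCm38.p6), in which both Lck starts matched, and exon sequences from the GENCODE transcripts of the same release.

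The 9 genes, the pathway lists and the markers were chosen with earlier results of these data known. All 9 genes are named, together with Csk, Grap2, Ptpn22, Themis, Sos1, Plcg2, Vav2, Vav3 and Syk whatever their values, and up to 5 genes per list, comparison and direction with the largest change among those called whose higher group averaged 5 CPM or more. Some genes that this rule or the pathway lists hold are not reported here, and they stay in the counts. Transcripts are named where their mean share reached 10% in a group, and Lat-206 was added after its values were seen. The 3 genes most like each member were taken by Pearson correlation of log2 (CPM + 0.5).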

Additional observations from a re-analysis of the deposited data

Results flagged for a closer look

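Of 60 sets of 5 libraries examined (a member's CPM or a share, in 1 group), 7 held a library far from the other 4 by Dixon's ratio with a critical value of 0.71. Chance flags about 1 in 20 sets of normally distributed values. Shares close to 100% are not such values, so 7 of 60 cannot be set against that rate. Fyn in Naive 5 stood at 458 CPM against 231 to 284 in the other Naive libraries. The rest were shares of counts in protein-coding transcripts. For Plcg1 they were 37.4% in Ag 3 (83.6 to 98.9% in the other Ag libraries), 90.8% in Naive 1 (97.7 to 98.9%) and 85.4% in Ag+Costim 5 (96.0 to 98.9%). For the kinases they were 99.7% for Zap70 in Ag+Costim 4 (99.1 to 99.2% in the others) and 99.9% for Fyn in Ag 1 (100% in the others). Lcp2 in Ag 3 was at 99.8% (99.9% in the others). Ag 3, which is in 2 of the 7, had the fewest counts of the 15 libraries, 4865952.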

How the results depend on the processing

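No gene of the 9 that passed reversed its direction under any alternative. In Ag against Naive 0 of the 9 passed, and 1 did without Ag 3 and Naive 5 (Fyn higher), 1 with voom quality weights (Lat lower), and 0 to 2 leaving out 1 library. In Ag+Costim against Ag 0 passed, and 3 did with voom quality weights (Fyb, Plcg1 and Sos2 lower) and 0 to 1 leaving out 1 library. In Ag+Costim against Naive 3 passed, and 0 did with lane as a term or with no filter on low counts, 5 without Ag 3 and Naive 5, 6 with voom quality weights, and 1 to 4 leaving out 1 library. Calls over all genes rose as well, to 10103 without Ag 3 and Naive 5 and to 13527 with voom quality weights. Those leaving out 1 library are not given. Over 26 alternatives of that comparison Plcg1 ranged from -1.49 to -0.96 and Fyb from -0.95 to -0.61, each called in 23, while Lcp2 was called in 9 and Fyn in 8.

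For the pathway lists, 24 genes passed in Ag against Naive, with 40 by DESeq2, 40 without Ag 3 and Naive 5, 50 with voom quality weights, 10 with no filter, 0 with lane as a term or with 2 groups only, and 11 to 45 leaving out 1 library (14 without Ag 2, 15 without Ag+Costim 4 and 12 without Naive 4). In Ag+Costim against Ag 0 passed, with 7 by DESeq2, 2 without Ag 3 and Naive 5, 48 with voom quality weights and 0 to 8 leaving out 1 library. In Ag+Costim against Naive 41 passed, with 15 with lane as a term, 72 with voom quality weights and 33 to 58 leaving out 1 library. Transcript usage, called for 0 of the 9, was called for 1 with no filter (Plcg1, in Ag against Naive and in Ag+Costim against Ag), and in Ag+Costim against Naive for 1 (Lck) by limma, with 2 groups only and without Ag 3 and Naive 5. Leaving out 1 library gave 0 to 1 in Ag against Naive (Lck without Ag 5) and 0 in the others. The coding shares passed in 0 tests throughout, which says little because the lowest p these tests can give leaves little room to pass. The log2 ratio of Fyn to Lck moved between -3.55 and -3.20 in Naive, -2.97 and -2.74 in Ag and -2.84 and -2.70 in Ag+Costim leaving out 1 library, and that of Sos2 to Sos1 between 0.20 and 0.31, 0.82 and 1.25, and 0.77 and 0.96. The causes were not tested.

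Over all genes the calls in the 3 comparisons were 1165, 6 and 7755, and 2736, 2533 and 9196 by DESeq2, 4039, 11205 and 13527 with voom quality weights, 208, 3 and 4158 with no filter, 6, 0 and 10205 with 2 groups only, and 0, 0 and 943 with lane as a term. Without Ag 3 and Naive 5 they were 3945, 989 and 10103. The groups share replicate numbers in the labels. Same-numbered libraries deviated together (correlation over 0.1) in 3, 1 and 1 of 5 pairs, with the highest correlations at 0.52, 0.17 and 0.16. So few pairs cannot tell whether the numbers pair the samples. With the replicate number as a block, 0, 0 and 3 of the 9 passed, with Fyn (0.55, edgeR FDR 0.0374) in and Lcp2 (0.25, edgeR FDR 0.064) out, 25, 0 and 43 pathway genes passed, 0 of the 9 changed usage, and 1660, 0 and 7833 genes were called in all. In the low-count library Ag 3 each read is worth most, and Sos2, at 76 counts or more, is the gene whose differences depth limits most.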
